A study of Homo sapiens with 4 samples.

Results

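The mRNAs of the miRNA biogenesis machinery were examined in the total RNA of EVs from PC3 cells, an established prostate cancer line derived from a bone metastasis. The 9 genes were DROSHA, DGCR8, XPO5, DICER1, TARBP2, AGO1, AGO2, AGO3 and AGO4, chosen by name for their roles and matched by Ensembl identifier, and all 9 were present among the 58051 genes of the count tables, of which 19629 are protein-coding. The series holds 2 total RNA libraries, called replicate 1 and replicate 2, and 2 small RNA libraries, all from EVs of PC3 cells with no treatment given in the labels. Per the study's methods the cells were moved to medium with exosome-free serum, and small vesicles in the size range of exosomes were isolated from it. For the isolation the methods name the exoEasy Maxi kit and qEV columns, and the labels name qEV columns. No library of the cells themselves was analysed here. The study depleted Dicer by siRNA in PC3 cells before collecting EVs, and RNA from such EVs was not analysed here. There is 1 condition, so no comparison between conditions was possible, and the comparisons are between genes and between the replicates.

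A miRNA is transcribed within a longer primary transcript that folds into a hairpin. In the nucleus the Microprocessor, made of the RNase III enzyme DROSHA and its RNA-binding partner DGCR8, releases the hairpin, and exportin 5, encoded by XPO5, carries it to the cytoplasm. There the RNase III enzyme Dicer, encoded by DICER1, works with its partner TRBP, encoded by TARBP2, to cut the hairpin into a duplex, and an Argonaute protein keeps one strand as the mature miRNA. Of the human Argonautes, AGO2 is the one best known for cutting its target RNA, and Argonautes and pre-miRNAs have been discussed as cargo of vesicles from tumour cells.

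The 4 Argonaute genes are paralogs, and AGO1, AGO3 and AGO4 lie next to each other on chromosome 1, so it was first asked whether a read could be told apart between them. The longest run of exon bases in common was 32 bases for AGO1 and AGO3 and 26 bases for AGO1 and AGO4, both within coding sequence. They are shown as places where a short read could fit more than 1 of the genes, with the shared run in capitals and 10 flanking bases on each side, 5′ to 3′ on the plus strand of GRCh38. The first pair lies at chr1:35906992-35907043 in AGO1 and chr1:36027171-36027222 in AGO3, and the second at chr1:35914220-35914265 in AGO1 and chr1:35841201-35841246 in AGO4.
AGO1 beside AGO3: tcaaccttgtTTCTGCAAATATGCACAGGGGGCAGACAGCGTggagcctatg
AGO3 beside AGO1: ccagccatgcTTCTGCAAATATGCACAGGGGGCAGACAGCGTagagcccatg
AGO1 beside AGO4: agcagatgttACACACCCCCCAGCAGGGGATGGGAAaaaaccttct
AGO4 beside AGO1: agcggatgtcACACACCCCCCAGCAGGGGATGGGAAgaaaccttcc
AGO3 and AGO4 share a longer run of 43 bases, which lies outside coding sequence in both. No exon word of 50 bases of any of the 9 genes was found in another of the 9. Searched over the whole genome on both strands, 5.25% of the 50-base words of AGO3 exons had a second exact copy, the highest share of the 9 genes, against 1.02% for DICER1 and 0% for DGCR8, TARBP2 and AGO2. With words of 75 bases the share was 0.823% for AGO3, 0.0804% for DICER1 and 0% for the other 7 genes. Words across splice junctions and copies with mismatches were not counted.

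2 of the genes also carry miRNAs, and their mature sequences are shown because they link these loci to the small RNA libraries. DGCR8 holds the hairpins of miR-3618 and miR-1306 inside its exons, a known site at which the Microprocessor cuts the mRNA of its own subunit, and an intron of DICER1 holds miR-3173. The seed, bases 2 to 8, is in capitals, and sequences and GRCh38 positions are from RefSeq.
miR-3618 (chr22:20085797-20085818, plus strand): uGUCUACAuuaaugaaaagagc
miR-1306-5p (chr22:20086072-20086093, plus strand): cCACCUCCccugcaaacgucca
miR-1306-3p (chr22:20086112-20086129, plus strand): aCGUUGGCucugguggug
miR-3173-5p (chr14:95137961-95137982, minus strand): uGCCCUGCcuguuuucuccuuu
miR-3173-3p (chr14:95137923-95137944, minus strand): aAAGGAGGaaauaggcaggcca
No pair of these 5 shares a seed. A single read of miR-1306-5p, in 1 of the small RNA libraries, was all that was counted for these 5 miRNAs, and the other 4 had 0 reads in both. The limit that a count of 0 allows, taken as 3 reads, was 19.5 and 26.5 CPM (reads scaled to 1000000 miRNA reads), so none of the 5 was above it.

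Each total RNA library had 489170 (replicate 1) or 475942 (replicate 2) reads counted on genes, 2.50% and 2.16% of all reads in the files. The authors' counting left out reads with several alignments (45.5% and 48.1% of all), reads assigned to no feature under its unstated strand setting (36.3% and 35.4%) and unaligned reads (14.2% and 12.8%), with smaller shares of low quality or ambiguous reads. Levels are in CPM, the reads scaled to 1000000 reads counted on genes, so 1 read is 2.04 or 2.10 CPM and the floor of 3 reads is 6.13 or 6.30 CPM. The 95% Wilson intervals and floors cover counting error only, since amplified reads are not independent molecules. Reads also tended to come in twos, with an even count in 70.8% and 68% of the protein-coding genes with reads, and in 52.6% and 47.1% of those with 200 reads or more. The cause was not tested, and intervals that take each read as independent are then too narrow. In these bulk libraries, fewer vesicles with a transcript and less of it per vesicle cannot be told apart. Of the labelled cells' markers, all 6 epithelial and PC3 genes had reads in both replicates, with a summed level of 2519 and 2900 CPM, mostly KRT8, and the 4 blood and liver genes had none. Of the 4 bone cell markers only COL1A1 had reads, 35 and 1. Of the 5 vesicle genes, CD63 (5 and 29 reads), CD81 (18 and 16) and PDCD6IP (8 and 14) had reads in both replicates, TSG101 had 26 and 0, and CD9 had none.

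All 9 machinery genes had reads, but only 4 had at least 1 read in both replicates, namely AGO1, AGO2, DGCR8 and XPO5. Among all protein-coding genes 21.9% had a read in both, and among the 10691 that are at least as long in exons as TARBP2, the shortest of the 9 at 4090 bases, 27.9% did. A read in either replicate was found for 9 of 9 and for 42.3% of protein-coding genes, a share not matched for length. The median exon length was 8.48 kilobases for the 9 genes and 4.47 for all protein-coding genes. AGO1 and AGO2 were the 2 with at least 10 reads in both, which 11.6% of protein-coding genes had, again not matched for length. Together the 9 genes held 158 reads in replicate 1 and 82 in replicate 2, or 323 CPM (95% interval 276 to 377) and 172 CPM (139 to 214), a mean of 248 CPM ± 107 (SD, n = 2). The summed level in replicate 1 was above that in replicate 2, and the intervals, for counting error only, did not overlap. DROSHA alone held 51 of the 158 reads in replicate 1 and 0 of the 82 in replicate 2. The median position of the 9 genes by mean CPM was the percentile 79.2 of all protein-coding genes. However, 57.7% of those genes had no read at all, and among the 8296 with a read in either replicate the median percentile was 50.8. The median of their mean levels was 18.7 CPM, against 18.4 CPM over all protein-coding genes with a read.

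**Figure D1:**
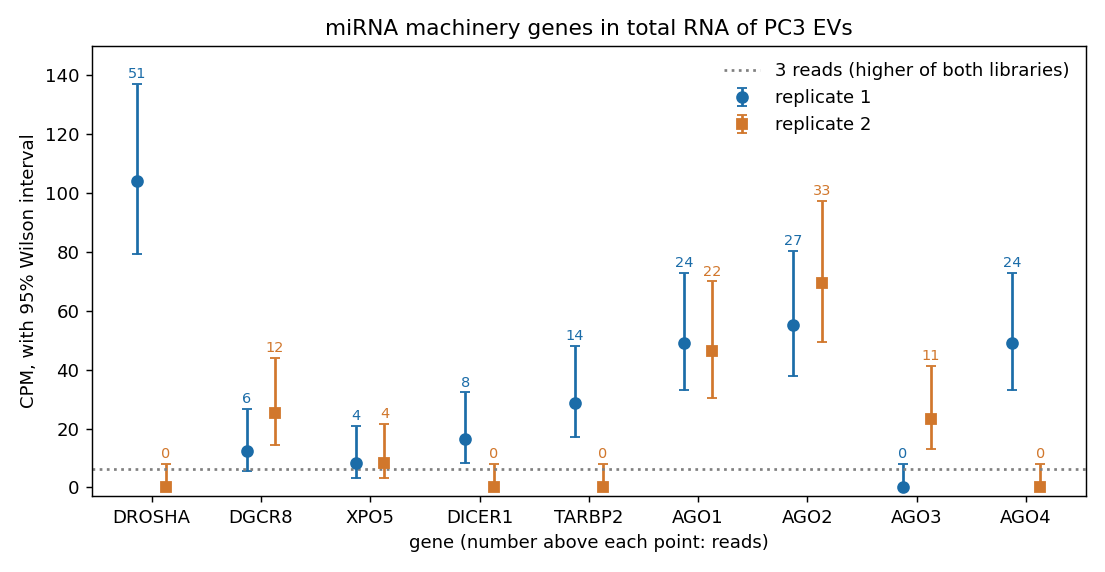
Level of each machinery gene in CPM in replicate 1 (circles) and replicate 2 (squares), with 95% Wilson intervals for counting error and the number of reads above each point. AGO1 and AGO2 lie close together in both replicates, while DROSHA, DICER1, TARBP2 and AGO4 have reads in replicate 1 alone and AGO3 in replicate 2 alone.

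Summed by role, the 4 Argonaute genes together held more reads in each replicate than the other roles. They are also the longest group, with 58466 exon bases against 15108 for the Microprocessor genes, and per kilobase the Microprocessor genes were higher in replicate 1 (7.71 against 2.62 CPM per kilobase) and lower in replicate 2 (1.67 against 2.37). The Argonautes' 75 and 66 reads were 153 CPM (95% interval 122 to 192) and 139 CPM (109 to 176), a mean of 146 CPM ± 10.4 (SD, n = 2), which is 47.5% of the machinery reads in replicate 1 and 80.5% in replicate 2. AGO2 (ENSG00000123908) had 27 and 33 reads, or 55.2 and 69.3 CPM, and AGO1 (ENSG00000092847) had 24 and 22, or 49.1 and 46.2 CPM. The 2 replicates of each were close, with a ratio of replicate 1 to replicate 2 of 0.796 (95% exact interval 0.460 to 1.37) for AGO2 and 1.06 (0.570 to 1.99) for AGO1. AGO4 (ENSG00000134698) had 24 reads in replicate 1, as many as AGO1, and 0 in replicate 2. AGO3 (ENSG00000126070) showed the opposite, with 0 and 11 reads. AGO4 thus added reads to the family sum in replicate 1 alone and AGO3 in replicate 2 alone.

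The Microprocessor genes did not share a pattern. DROSHA (ENSG00000113360) had 51 reads in replicate 1, the highest count of any of the 9 genes in either library, and 0 in replicate 2. Its level of 104 CPM (95% interval 79.3 to 137) in replicate 1 was 16.5 times the floor of 3 reads in replicate 2. DGCR8 (ENSG00000128191) had 6 and 12 reads, or 12.3 and 25.2 CPM, a ratio of 0.486 (0.150 to 1.40). XPO5 (ENSG00000124571), for the export of the hairpin, had 4 reads in each replicate, 8.29 CPM ± 0.161 (SD, n = 2), just above the floor, and counting error alone allows a ratio from 0.181 to 5.22.

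The genes of the dicing step were found in replicate 1 only. DICER1 (ENSG00000100697), the target of the siRNA in the study, had 8 reads in replicate 1, or 16.4 CPM (95% interval 8.29 to 32.3), and 0 in replicate 2, where the floor of 3 reads is 6.30 CPM and the upper limit of the 95% Wilson interval 8.07 CPM. TARBP2 (ENSG00000139546) had 14 reads in replicate 1, or 28.6 CPM, and 0 in replicate 2. The level in replicate 1 was 2.59 times that floor for DICER1 and 4.54 times for TARBP2. These ratios leave out the counting error of replicate 1, so they are not lower limits of a difference.

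To ask whether the replicates differed by more than counting noise, the reads of each gene were compared with the library totals by a two-sided exact binomial test with Benjamini-Hochberg adjustment over the 5764 protein-coding genes whose reads in the replicates added up to 10 or more. The test compares the libraries with each other and not conditions. Past an adjusted p of 0.05 were 4 of the 7 machinery genes that could be tested, and 64.1% of all genes tested were, which is the background for that count. DROSHA (exact binomial adjusted p = 9.13e-14), AGO4 (9.76e-07) and TARBP2 (0.00035) were higher in replicate 1, as 31.5% of all genes tested were. AGO3 (adjusted p = 0.00102, exact binomial test) was higher in replicate 2, as 32.6% were. DGCR8 (adjusted p = 0.215), AGO2 (0.51) and AGO1 (0.912) did not pass the exact binomial test. DICER1 and XPO5, with 8 summed reads each, were below the minimum, and when the minimum was dropped DICER1 passed (exact binomial adjusted p = 0.0172), as 52.9% of all 8296 genes with a read did, and XPO5 did not (adjusted p = 1). Because reads came in twos, the test was repeated on halved reads, an alternative chosen after the data were seen. With the minimum kept, DROSHA, AGO4, TARBP2 and AGO3 passed again (exact binomial adjusted p = 2.43e-06, 0.0033, 0.0382 and 0.0367), as 42.5% of all genes tested did. Over all genes with a read, DROSHA and AGO4 passed, as 24.7% did, and DICER1 did not (exact binomial adjusted p = 0.235), nor did TARBP2 (0.055) or AGO3 (0.0528). The difference in DICER1 between the replicates is therefore not established by these counts.

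**Figure D2:**
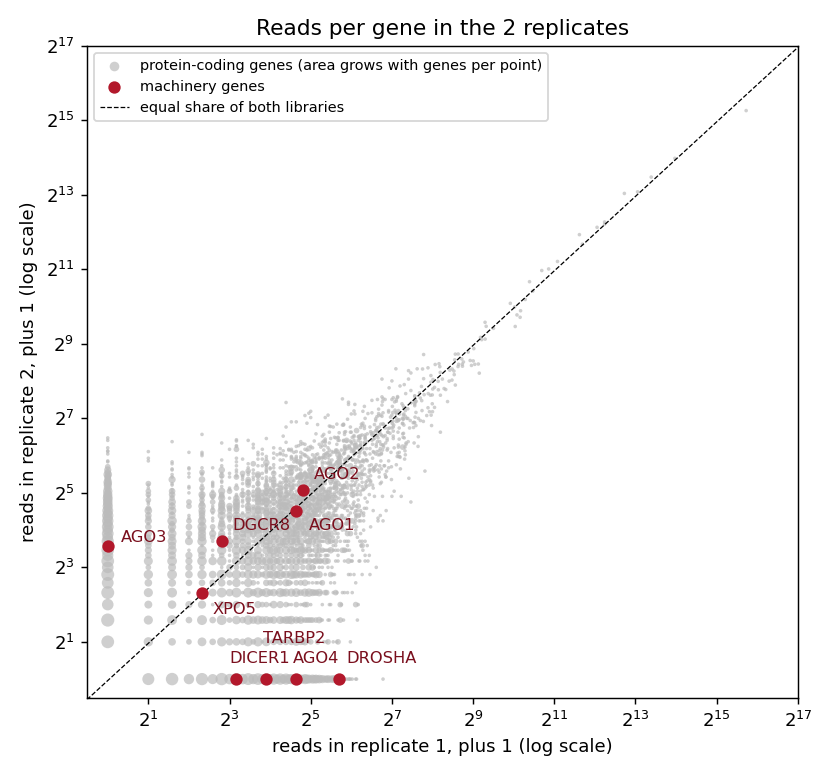
Reads per protein-coding gene in replicate 1 (horizontal axis) and replicate 2 (vertical axis), each plus 1 on a log scale, with the machinery genes in red, all other genes with a read in grey and the line of equal shares dashed. AGO1, AGO2, DGCR8 and XPO5 lie in the cloud near the line, and the other 5 lie on an axis among many other genes without a read in one replicate.

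Reads in a single replicate were common in these libraries but depended on the count. Of the 7 machinery genes with at least 10 summed reads, 4 (DROSHA, TARBP2, AGO3 and AGO4) had none in one replicate, against 30.5% of all protein-coding genes with such counts. The share was 60.3% among genes with 10 to 19 summed reads, where AGO3 and TARBP2 lie, and 26.4% among those with 20 to 49, where AGO4 lies. Among the 960 genes with 50 to 99 summed reads it was 2.5%, and DROSHA was one of these 24 genes. With 51 summed reads it lies at the lower edge of that range. Of the 24, 2 had 51 and 0 reads and 2 had 0 and 51. The share fell with the count, so 2.5% understates it near 51 reads. With fewer than 10 summed reads, as for DICER1, it was 88.2%. Single reads were rare, since 4.18% of the genes with reads in replicate 1 and 5.09% of those in replicate 2 had exactly 1, and the median gene with reads had 15 and 12. Markers moved in both directions. COL1A1, TSG101 and VIM were higher in replicate 1 (exact binomial adjusted p = 1.8e-08, 2.97e-07 and 0.0116), and KRT8, KRT19, EPCAM, CDH1 and CD63 in replicate 2 (0.00196, 0.000157, 7.01e-06, 0.0292 and 6.76e-05 by the exact binomial test). Their part in the pattern was not tested.

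Levels of different genes can be compared only per length of transcript. Per kilobase of merged exon, mean levels ran from 6.70 CPM per kilobase for DROSHA to 0.369 for DICER1. AGO2 (3.93 ± 0.631, SD, n = 2) and AGO1 (3.39 ± 0.143, SD, n = 2) differed by less than the SD of AGO2. TARBP2 (3.50 ± 4.95, SD, n = 2) and AGO4 (3.30 ± 4.67, SD, n = 2) lay beside them on average, but with all reads in 1 replicate their SDs exceed their means. DGCR8 followed with 2.56 ± 1.25 (SD, n = 2), then XPO5 with 0.978 ± 0.0189 (SD, n = 2) and AGO3 with 0.546 ± 0.773 (SD, n = 2). In both replicates, AGO1 and AGO2 were above XPO5, DICER1 and AGO3. In replicate 1 the order began with DROSHA (13.4 CPM per kilobase), followed by TARBP2 and by AGO4 (6.61), and in replicate 2 with AGO2 (4.38), DGCR8 (3.44) and AGO1 (3.29). The low value of DICER1 rests partly on its length, since its merged exons span 22151 bases and its canonical transcript 10384. Per kilobase of the canonical transcript, a length chosen after the data were seen, DICER1 was at 0.787 CPM per kilobase, TARBP2 rose to 9.48, DGCR8 to 4.16 and XPO5 to 1.56, and DROSHA kept the highest mean at 9.63. AGO3 then had the lowest mean, 0.588.

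**Figure D3:**
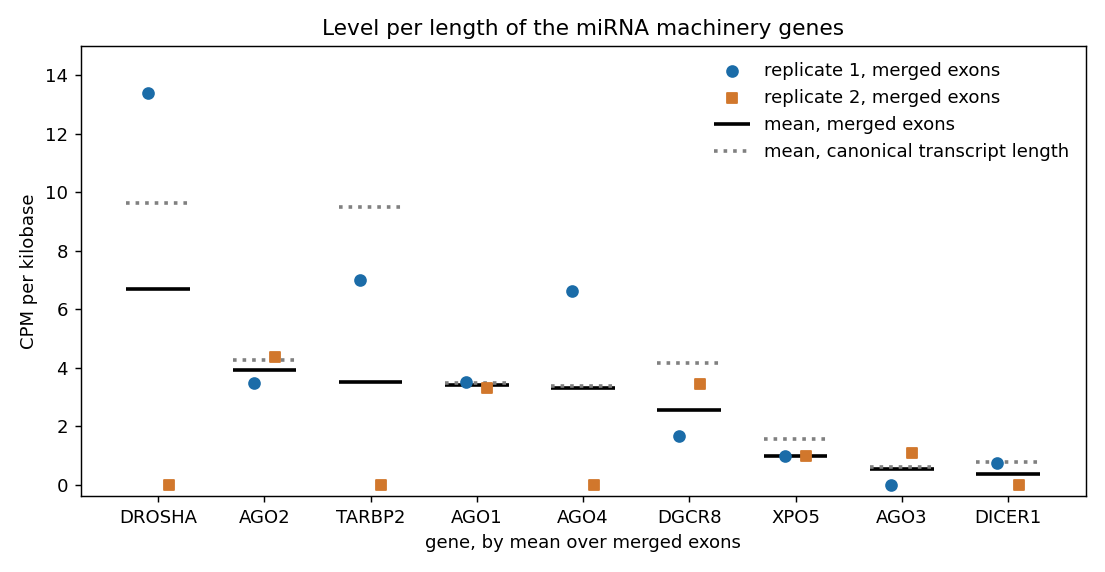
Level per kilobase of merged exon in replicate 1 (circles) and replicate 2 (squares), with the mean as a black line and the mean per kilobase of the canonical transcript as a dotted grey line. AGO1 and AGO2 are the only genes above 3 CPM per kilobase in both replicates, and the mean of DROSHA lies between 13.4 and 0.

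The genes were then set on GRCh38 with GENCODE release 44 to see which other genes share their exons, because reads in such places depend on the strand setting of the counting, which is not given in the sources used here. DICER1 lies on chromosome 14 from 95086228 to 95158010 on the minus strand, and its exons overlap those of the antisense gene DICER1-AS1 by 80 bases, with 1 and 0 reads on the antisense gene. DROSHA lies on chromosome 5 from 31400494 to 31532196 on the minus strand and shares no exon base with another gene. A Y RNA gene on the plus strand inside a DROSHA intron had 13 reads in replicate 1 and 0 in replicate 2, the same side as DROSHA itself. DGCR8, on the plus strand of chromosome 22 from 20080221 to 20111877, lies opposite a lncRNA gene over 526 bases of exon (ENSG00000243762, 0 reads in both replicates) and opposite TRMT2A over 3 bases (0 and 7 reads).

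XPO5, on the minus strand of chromosome 6 from 43522334 to 43576038, shares 348 exon bases with POLR1C on the plus strand, and POLR1C had 0 and 7 reads against 4 and 4 on XPO5. TARBP2, on the plus strand of chromosome 12 from 53500921 to 53506431, lies opposite a lncRNA gene over 541 bases of exon (ENSG00000270175), which had 0 reads in both. AGO4, AGO1 and AGO3 lie in this order on the plus strand of chromosome 1, from 35808016 to 35857890, from 35869808 to 35930532 and from 35930718 to 36072500. AGO4 shares no exon base with another gene, and AGO1 lies opposite 396 bases of a lncRNA gene with 0 reads in both (ENSG00000271914). The lncRNA gene opposite 86 exon bases of AGO3 (ENSG00000271554) had 3 and 17 reads, against 0 and 11 on AGO3, both higher in replicate 2. AGO2, on the minus strand of chromosome 8 from 140520156 to 140635633, shares 47 exon bases with a same-strand gene model of unchecked status (ENSG00000279766, 0 reads in both). For 4 of the 9 genes, then, an overlapping gene in their exons had any read, and for AGO1, AGO2, AGO4, DROSHA and TARBP2 none had.

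Around the 9 genes, a list of 50 other genes of the miRNA pathway was examined, chosen with earlier results of these data known. Of these, 25 (50%) had at least 1 read in both replicates, 9 in a single replicate and 16 in none. Among all protein-coding genes 21.9% had a read in both and 57.7% had none. Most of the list is at least as long in exons as TARBP2, and among such genes 27.9% had a read in both. Of the 31 that could be tested, 19 differed between the replicates past an adjusted p of 0.05 in the exact binomial test, 10 higher in replicate 1 and 9 in replicate 2, against the 64.1% of all genes tested. Of the cofactors of primary miRNA processing, 12 of 14 genes had reads in both replicates, with a summed level of 1253 and 1107 CPM. KHSRP, which binds the terminal loop of some hairpins, had 200 and 127 reads, a mean of 338 CPM ± 100 (SD, n = 2). The DEAD-box helicase DDX5, a cofactor of the Microprocessor, had 46 and 108, and SRRT (ARS2), which links the cap-binding complex to primary miRNAs, had 67 and 73. SAFB2, reported to help the Microprocessor with some clustered hairpins, had 74 and 70, and HNRNPA2B1, an RNA-binding protein, had 23 and 56. NCBP2, a subunit of the cap-binding complex, had no read.

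The chaperones that open Argonaute for loading were found in all 4 cases. HSP90AA1 had 289 and 334 reads, the highest of the list at 646 CPM ± 78.5 (SD, n = 2), HSP90AB1 had 66 and 146, and the co-chaperones PTGES3 (p23) and FKBP4 had 50 and 89 and 63 and 33. Both HSP90 genes have pseudogenes elsewhere in the genome, and reads with several alignments were not counted, so these counts are uncertain. ZSWIM8, the ubiquitin ligase adaptor of target-directed miRNA decay, had 61 and 48 reads, 113 CPM ± 16.9 (SD, n = 2). It was alone among the 5 turnover genes in having reads in both replicates, and XRN1 and PARN had none.

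Of the 8 genes that process or control the pre-miRNA, LIN28A, LIN28B, TUT4, TUT7 and TENT2 had no read in either replicate, and 2 had reads in both, shares near those of all protein-coding genes. LIN28A and LIN28B block let-7 maturation, and TUT4, TUT7 and TENT2 add nucleotides to RNA ends. PRKRA (PACT), the other partner of Dicer, had 12 and 1 reads (adjusted p = 0.0064, exact binomial test). It was higher in replicate 1, as 31.5% of all genes tested were, and its result on halved reads is not given here. PRKRA has 2 other genes with exons opposite its own. The same limit holds for FKBP4 (3 genes), ZSWIM8 and HNRNPA2B1 (2 each), and DDX5 and HSP90AA1 (1 each). KHSRP, HSP90AB1, SAFB2, SRRT and PTGES3 have no such gene. Of the 12 effector genes, 4 had reads in both replicates, and TNRC6C, FMR1 and DCP1A had none. Among the TNRC6 proteins, which Argonautes recruit to silence a target, TNRC6A had 11 and 18 reads and TNRC6B had 0 and 4. PRKRA, TNRC6A and TNRC6B were picked for their roles after their values were seen. The germline PIWI branch, the Argonaute relatives that bind piRNAs, had no read on PIWIL1, PIWIL2, PIWIL3, PIWIL4 or on HENMT1, which methylates piRNA ends, in either library. A count of 0 shows only that a transcript was not detected at this depth.

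**Figure D4:**
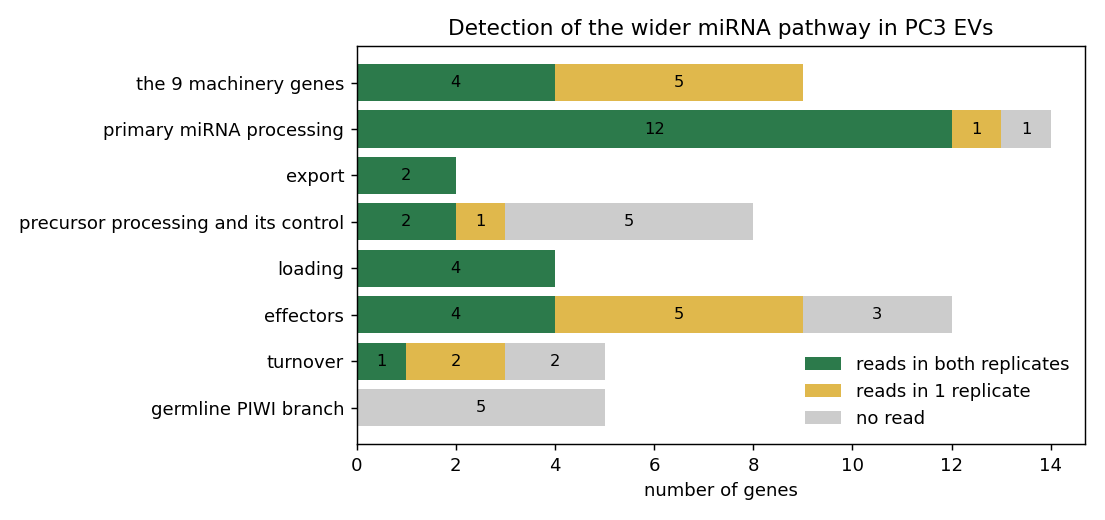
Number of genes (horizontal axis) with reads in both replicates (green), in 1 replicate (yellow) or with no read (grey), for the machinery genes and the 7 groups of the wider miRNA pathway. All 4 loading chaperones and 12 of 14 processing cofactors are green, 5 of the 9 machinery genes are yellow, and the germline PIWI branch is entirely grey.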

How the data were processed

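Total RNA and small RNA of EVs from PC3 cells were sequenced from 2 biological replicates each, per the study's methods. The titles of both total RNA libraries carry the same EX1 tag while the description of the second has EX2, so that they are separate preparations rests on the methods alone. The authors named Cutadapt, SHRiMP and SAMtools for trimming, mapping to GRCh38 and counting, and the processing notes name HTSeq. The deposited values are raw read counts per Ensembl gene or mature miRNA, without normalisation. Versions, strand setting and annotation release are not given in the sources used here. Both small RNA columns have the same header and could not be assigned to a replicate number.

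Counts were scaled to CPM of the reads counted on genes, and closing rows of reads not counted were left out of totals. Of 58051 identifiers, 56948 matched GENCODE release 44. Replicates were compared by exact binomial tests in scipy 1.17.1, with Benjamini-Hochberg adjustment over protein-coding genes. The test was checked on simulated counts of independent reads, which does not cover reads that come in twos. edgeR 4.0.16 and DESeq2 1.42.0 in R 4.3.3 gave scaling factors only, since their tests need 2 groups. Exon words were searched in hg38 with numba 0.67.0 in Python 3.11.15. The genes and lists were chosen with earlier results of these data known. Named were the 9 genes, genes overlapping their exons, the 10 genes of the wider list with the highest mean CPM, those without reads in each group and the PIWI branch. Genes with reads that lie within one of the 9 but outside its exons were named in addition. The result of 1 marker list is not reported here.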

Additional observations from a re-analysis of the deposited data

How the results depend on the processing

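No paired analysis was possible because there are no conditions to pair within an assay, and the small RNA columns cannot be matched to replicate numbers. Of the 9 machinery genes, 4 were identified in both replicates at a minimum of 1 read or of 3, 2 at a minimum of 10 and 9 with a read in either, and with one replicate left out from 5 (replicate 2 alone) to 8 (replicate 1 alone). Their summed level of 248 CPM became 418 CPM over protein-coding reads and 382 CPM without 7SL RNA and mitochondrial genes, because the total is smaller, and with a single replicate it was from 172 to 323 CPM. TMM and DESeq2 scaling moved it by less than the SD. Their median percentile was 50.8 among genes with a read in either replicate, and from 72.0 to 84.4 with a single replicate. The number of genes that differed between the replicates was 4 with protein-coding totals and with TMM factors, and 5 without the minimum of 10 summed reads, with DICER1 added. With reads halved (an alternative added later, once the counts had been seen) it came to 4 with the minimum and 2 without it, where TARBP2, AGO3 and DICER1 did not pass. Of 54 alternative values for single genes, 8 moved by more than the SD, all with the smaller totals. With 2 replicates, a single one always lies within the SD of their mean, so omitting one could not count as a move. For the 5 genes with reads in 1 replicate the SD exceeds the mean, and the smaller totals could not move them either. DROSHA was at 104 CPM with replicate 1 alone and at 0 with replicate 2 alone. The count of 8 is therefore no measure of stability. Each gene had at most 60 reads over both replicates, which limits the precision of every level. The exon length of the canonical transcript was added as an alternative after the data were seen.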
